A study of Homo sapiens with 18 samples.

Results

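Drug-tolerant persisters are the small share of a cancer cell population that outlives a lethal dose of drug without a known resistance mutation, and that can regrow when the drug is taken away. In lung cancer lines that depend on the kinase EGFR they are left after EGFR inhibitors as slowly cycling cells with altered chromatin. Histone deacetylases remove acetyl groups from histones, which helps to keep chromatin closed, and trichostatin A (TSA) inhibits them; persisters are known for dying under such inhibitors at doses that their parents tolerate. The interferon response is a set of antiviral genes switched on by factors that include STAT2 and IRF9, and double-stranded RNA, from viruses or from the cell's own retroelements, is among its triggers. LINE-1 (L1) is the main active retroelement of human cells and is held down by methylation of histone H3 at lysine 9.

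The comparison is between TSA-treated persisters and TSA-treated parental cells, which are 6 of the 18 RNA libraries of the series, and it asks how much of the persister state remains when both kinds of cell have met the same inhibitor. The cells are PC9, a human non-small cell lung cancer line. DTP_TSA (3 libraries) are the cells that survived 8 days in 1 µM erlotinib, an EGFR inhibitor, and then had 50 nM TSA for 5 hours without a change of medium. Parental_TSA (3 libraries) are PC9 cells given 50 nM TSA for 5 hours, also without a change of medium. As a yardstick the same difference without TSA was taken from DTP (3 libraries, the erlotinib survivors) and parental_DMSO (3 libraries, cells given the solvent), which share no library with the TSA groups. The labels give erlotinib only for the persisters, so the presence of the drug and the persister state cannot be told apart in either difference. Nor do they state that libraries a, b and c of a group are independent cultures, and every p-value below rests on library-to-library spread alone, which may be technical.

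Library DTP_TSA a stood apart. It had 32139343 reads on genes, the fewest of the 18 libraries, where the highest had 128293531, and 46.0% of its reads came from the ERCC spike-in RNA, which was added by cell number. That is 99.9 spike-in reads per 100 gene reads, against 0.577 and 0.551 in DTP_TSA b and c and 0.786, 0.535 and 0.502 in parental_TSA. The mean log2 ratio of spike-in to gene reads was 2.41 higher in DTP_TSA (exact permutation test, 2-sided, p = 0.5, where the smallest possible p is 0.1), and -0.08 without DTP_TSA a (exact p = 1). Ribosomal RNA repeats took 7.09% of its reads, and 15124 genes had a read in it, against 21202 and 21239 in DTP_TSA b and c and 18900 to 20064 in parental_TSA. Across genes its log2 level correlated with DTP_TSA b and c at 0.9815 and 0.9822, where b and c reached 0.9992 with each other; parental_TSA a correlated with its group at 0.9916 and 0.9854, where b and c reached 0.9981. Results are therefore also given without library a of both TSA groups. The cells carried epithelial markers throughout, EPCAM among them with 349 CPM in DTP_TSA and 592 CPM in parental_TSA, while the lung lineage genes NKX2-1 and NAPSA were near 0 (1.02 and 0.248 CPM in DTP_TSA, 0.882 and 0.355 CPM in parental_TSA), and the T cell and leukocyte genes PTPRC, CD3E and CD2 were too low to be tested.

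Levels are counts scaled to each library's reads on genes (CPM) with TMM factors. Differences are log2 fold changes with their standard error (SE) from edgeR's quasi-likelihood test over all 18 libraries, DTP_TSA over parental_TSA and DTP over parental_DMSO, and a gene is called higher or lower where the p adjusted by Benjamini and Hochberg is under 0.05. The change in the persister difference under TSA is the first log2 difference minus the second, and has a test of its own in the same fit.

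Most genes called in the persister difference without TSA kept their call under TSA, and their differences were on the median smaller. They were picked by their call without TSA, which by itself favours a smaller value in the other comparison. Of 17641 genes tested, 5599 were higher in DTP_TSA than in parental_TSA (31.7%) and 5485 lower (31.1%), and in 9994 genes (56.7%) the 3 libraries of DTP_TSA did not overlap with the 3 of parental_TSA. With only the 2 TSA groups fitted, 7393 genes were called between them, against 11084 in the fit of all 18 libraries. Without TSA, 5471 genes were higher in DTP (31.0%) and 4911 lower (27.8%). Of these 10382 genes, 7067 (68.07%) had the same call under TSA, which is 63.76% of the 11084 genes called under TSA, while 739 (7.118%) had the opposite call and 2576 had none. Across the 10382 genes the 2 log2 differences correlated at 0.82 (Pearson, a description across genes, which are not independent replicates).

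Among higher genes the share that kept its call grew with the size of the difference. Of the genes higher in DTP without TSA, 54.6% of 2476 genes with a log2 difference under 1 had the same call under TSA, 70.2% of 1443 between 1 and 2, 77.41% of 1089 between 2 and 4, and 85.96% of 463 at 4 or more. Of the genes lower in DTP, the shares in the same order were 68.69%, 79.01%, 71.58% and 69.77% (of 3887, 791, 190 and 43 genes) and did not grow steadily. For the 2995 genes at 1 or more, the median ratio of the log2 difference with TSA to that without was 0.63, and 57 had the opposite call. For the 1024 genes that were lower in DTP by 1 or more, 791 kept their call, 36 had the opposite call and the median ratio was 0.73. Both sets were picked by their difference without TSA. That choice favours ratios under 1, so the ratios do not measure how far the persister difference shrank. The change itself was called in 6750 genes, 2697 with a higher value under TSA (15.3%) and 4053 with a lower value (23.0%). Without library a of both TSA groups, 9209 of 13257 genes called without TSA kept their call (69.47%) and 1243 turned (9.376%).

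**Figure D1:**
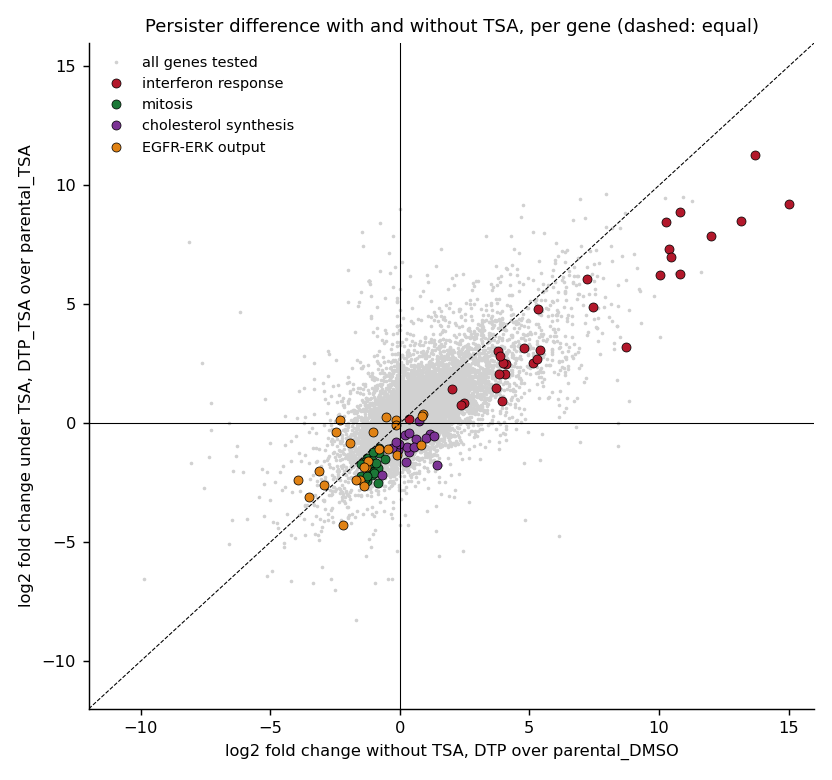
Each point is a gene; the x axis is the log2 fold change of DTP over parental_DMSO and the y axis that of DTP_TSA over parental_TSA, with the dashed line where they are equal. Interferon response genes lie to the right of zero and mostly below the dashed line, mitosis genes lie below zero on both axes, and most cholesterol synthesis genes are positive without TSA and negative with it.

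These counts moved when library sizes were taken from the spike-in reads and DTP_TSA a was left out. In that fit the median log2 difference of all genes between DTP_TSA and parental_TSA was 0.29, against 0.04 with gene reads, with 5916 genes higher and 2729 lower, and the change under TSA was called in 1096 genes upward and 1638 downward. With gene reads as library sizes and DTP_TSA a left out, 12042 genes were called between the TSA groups and the change in 7850. With all libraries these counts were 11084 and 6750, and in the spike-in fit 8645 and 2734. Leaving out that library alone thus raised both counts, and in this comparison they fell with the spike-in scaling. With gene reads they also fell, to 7393 and 5387, when only the compared groups were fitted.

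The interferon response was the group with the largest median difference of the 14 lists plotted here, with and without TSA. Of 30 members tested, 29 were higher in DTP_TSA and none lower, with a median log2 difference of 3.14, against 0.04 over all genes tested. Without library a of both groups the count was the same and the median was 3.10. Without TSA all 30 were higher, with a median of 5.32 against 0.06 over all genes, and the change under TSA was called downward in 25 and upward in none, with a median of -2.12 against -0.11. Both medians stay the same when members with 3 or fewer reads in a group are set at the fold against 3 reads over that group. In these bulk libraries, fewer cells with a response and less RNA per cell cannot be told apart.

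The promoters of several of these genes hold the letters of the element that complexes of STAT2 and IRF9 are known to bind, written here as GAAANNGAAA and searched on both strands of the 250 bases before the start in RefSeq promoters (GRCh38.p14). Of the 30 members 23 were in that table and 14 held a match (60.9%), against 839 of all 27305 promoters (3.07%). A stretch of 60 bases is shown for 5 members of the list that turn up among the largest differences or the values below, with the matches in capitals, including those that read as the reverse complement and those that overlap.
BST2: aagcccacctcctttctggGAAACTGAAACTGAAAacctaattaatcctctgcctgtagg
IFI6: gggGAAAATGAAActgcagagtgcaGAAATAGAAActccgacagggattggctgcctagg
IFI27: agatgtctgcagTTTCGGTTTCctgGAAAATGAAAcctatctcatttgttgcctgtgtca
IFITM1: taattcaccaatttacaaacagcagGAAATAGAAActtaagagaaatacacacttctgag
ISG15: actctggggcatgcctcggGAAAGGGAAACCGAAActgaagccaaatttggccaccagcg
The stretches lie at chr19:17405720-17405779 (minus strand) for BST2, chr1:27672251-27672310 (minus strand) for IFI6, chr14:94110616-94110675 (plus strand) for IFI27, chr11:313975-314034 (plus strand) for IFITM1 and chr1:1013365-1013424 (plus strand) for ISG15. OAS1, MX1, IRF9 and STAT2 are in the table and held no match in this window. A match describes the letters and was not tested as a site.

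BST2, which tethers budding virus particles to the cell surface, had 70.8, 77.6 and 78.0 CPM in DTP_TSA (libraries a, b and c), against 0.229, 0.0909 and 0.175 CPM in parental_TSA. It had 100.1, 98.0 and 99.9 CPM in DTP, against 0.0545, 0.0662 and 0.0413 CPM in parental_DMSO. Every library of either persister group thus lay far above every parental library, and TSA-treated persisters lay somewhat below untreated ones. The log2 difference was 8.90 ± 0.16 under TSA (edgeR, adjusted p = 8.29e-17) and 10.80 without, a change of -1.91 (edgeR, adjusted p = 0.000488).

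OAS2, an enzyme that makes the messenger 2-5A when it meets double-stranded RNA, had 55.3, 63.3 and 63.7 CPM in DTP_TSA, against 0.0305, 0.0182 and 0.0228 CPM in parental_TSA, which is 7 reads in that group. This was the largest difference among the genes named here, at 11.29 ± 0.28 (edgeR, adjusted p = 6.8e-15). Its relative OAS1 had 60.02, 66.0 and 65.0 CPM in DTP_TSA against 2.02, 2.25 and 2.09 CPM in parental_TSA, and 141.7, 137.5 and 135.2 CPM in DTP against 0.804, 0.715 and 0.854 CPM in parental_DMSO. OAS1 was thus lower in TSA-treated than in untreated persisters and higher in TSA-treated than in untreated parental cells, and its log2 difference of 4.91 with TSA and 7.45 without changed by -2.54.

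The same double movement was seen in IFI6, a membrane protein induced by interferon. It had 89.6, 96.2 and 93.0 CPM in DTP_TSA against 1.63, 1.08 and 1.03 CPM in parental_TSA, and 116.7, 115.0 and 120.8 CPM in DTP against 0.0682, 0.0530 and 0.0689 CPM in parental_DMSO. The parental level was the part that differed most between the pairs, and the log2 difference was 6.26 with TSA and 10.83 without. IFIT1, which binds viral RNA that lacks the host cap, had 30.1, 33.1 and 31.6 CPM in DTP_TSA against 3.37, 3.63 and 3.34 CPM in parental_TSA, and averaged 109.5 CPM in DTP and 0.254 CPM in parental_DMSO. Here both sides moved, with a difference of 3.20 with TSA and 8.75 without.

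ISG15, a ubiquitin-like protein, had 107.4, 54.2 and 63.1 CPM in DTP_TSA against 12.4, 6.39 and 6.25 CPM in parental_TSA. Library a was the highest of its group on both sides, and the difference was 3.18 ± 0.28 (edgeR, adjusted p = 3.91e-08), or 3.21 without both. IFI27, IFI44, IFITM1 and MX2, a barrier to retroviruses, differed by 8.46, 7.33, 6.98 and 6.24 on the log2 scale. XAF1, an interferon-induced partner of the apoptosis inhibitor XIAP, averaged 6.62 CPM in DTP_TSA and 51.0 CPM in DTP, and RSAD2, the antiviral enzyme viperin, 1.06 and 6.23 CPM; both were at or near 0 reads in the parental groups.

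STAT2 and IRF9, which help to drive the response, differed by less than the median of the list. STAT2 had 46.9, 56.8 and 55.8 CPM in DTP_TSA against 24.5, 29.9 and 33.2 CPM in parental_TSA, and 75.7, 75.1 and 73.2 CPM in DTP against 13.6, 13.6 and 13.04 CPM in parental_DMSO. The groups did not overlap, and STAT2 differed by 0.87 with TSA and 2.48 without. IRF9 had 10.1, 5.81 and 5.2 CPM in DTP_TSA against 4.31, 3.61 and 2.95 CPM in parental_TSA, but 33.7, 32.2 and 33.3 CPM in DTP against 2.36, 1.95 and 2.19 CPM in parental_DMSO. TSA-treated persisters thus stood near their TSA-treated parents in IRF9 and far below untreated persisters, with a difference of 0.94 with TSA and 3.93 without. The sensors of double-stranded RNA RIGI and IFIH1 differed by 2.09 and 2.07 with TSA, and by 4.06 and 3.83 without. EIF2AK2, the kinase PKR that halts translation when it binds such RNA, was the member that was not called, at 68.1 CPM in DTP_TSA and 59.6 CPM in parental_TSA, a difference of 0.19 (edgeR, adjusted p = 0.17).

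**Figure D2:**
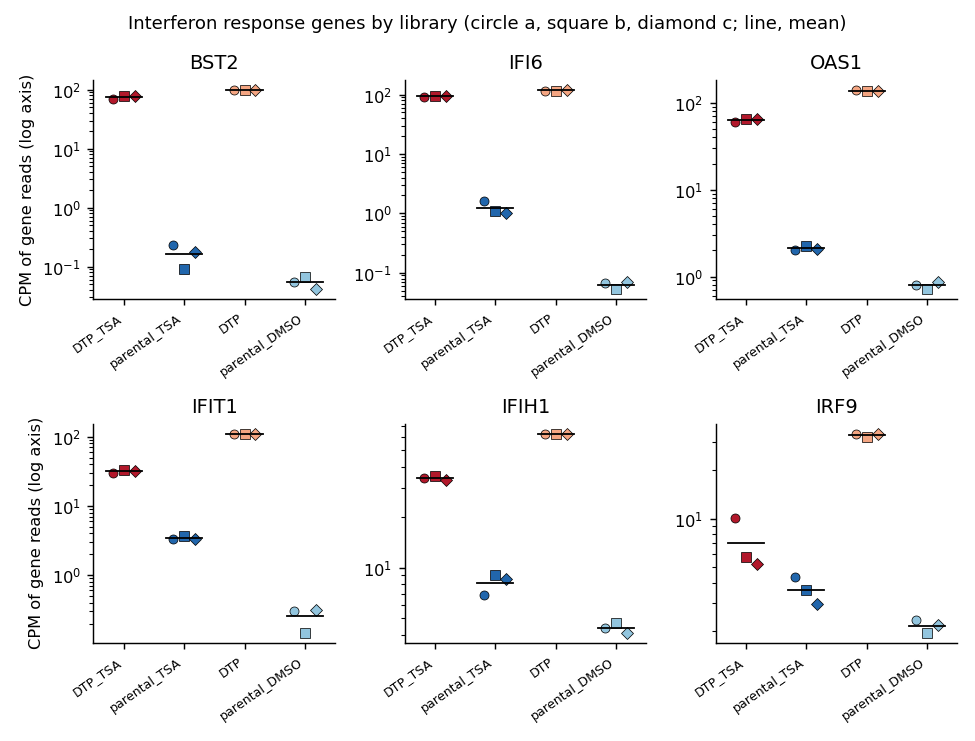
CPM of gene reads on a log axis for 6 interferon response genes in the 12 libraries, with a circle for library a, a square for b, a diamond for c and a line at the group mean. In each panel both persister groups lie above both parental groups, and DTP_TSA lies below DTP, least in IFI6 and most in IRF9 and IFIT1.

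Of 16 ligands, receptors and sensors upstream, 8 were higher and 4 lower in DTP_TSA, beside 31.7% and 31.1% of all genes, with a median of 0.30. With spike-in scaling 8 were higher and 1 lower, with a median of 0.59, and without library a of both groups the median was 0.54. The genes of interferon beta and of 3 interferon lambdas were too low to be tested. STING1, the adaptor that carries the signal of DNA in the cytosol, had 62.8, 61.5 and 60.7 CPM in DTP_TSA against 8.76, 6.74 and 6.13 CPM in parental_TSA. It was about as high in all 3 persister libraries and differed by 3.11 ± 0.10 (edgeR, adjusted p = 1.13e-13), and by 3.64 without TSA. TLR3, a receptor of double-stranded RNA in endosomes, differed by 2.05, and the kinases JAK1 and TYK2 by 0.83 and 0.82. MAVS, which relays the signal of RIGI and IFIH1, was lower by 0.34 and CGAS, the sensor of DNA in the cytosol, by 0.59.

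Genes of antigen presentation, most of them for HLA class I, were mostly higher too. Their list also holds CIITA, a regulator of HLA class II genes, and the checkpoint ligand gene CD274. In DTP_TSA 14 of 17 were higher and none lower, beside 31.7% and 31.1% of all genes, with a median of 1.14. All 17 were higher without library a of both groups. B2M, the light chain of HLA class I, had 1038, 1151 and 1126 CPM in DTP_TSA against 518.6, 414.3 and 352.1 CPM in parental_TSA. The groups did not overlap, and the difference of 1.37 compares with 1.81 without TSA. PSMB9, a subunit of the immunoproteasome, differed by 2.17 with TSA and 4.07 without. TAP2, which carries peptides to the class I molecules, differed by 0.72 with TSA and 0.06 without, where it was not called, and that change of 0.66 was called upward (edgeR, adjusted p = 7.35e-06). It was 1 of 2 members with an upward change, while the change was called downward in 10 of the 17, with a median of -0.50.

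Output of the EGFR-ERK pathway stayed low in persisters under TSA. Of 24 target genes 17 were lower and 2 higher in DTP_TSA, beside 31.1% and 31.7% of all genes, with a median of -1.21. Without TSA 18 were lower and 3 higher, with a median of -1.33. Without library a of both TSA groups 19 were lower and 4 higher. The change was called upward in 10 and downward in 10, beside 15.3% and 23.0% of all genes. DUSP6, the phosphatase that ERK induces against itself, had 7.04, 6.81 and 6.65 CPM in DTP_TSA against 57.6, 58.4 and 56.9 CPM in parental_TSA, and 3.91, 3.49 and 3.49 CPM in DTP against 41.0, 41.5 and 40.2 CPM in parental_DMSO. All persister libraries lay far below all parental ones, with a difference of -3.08 ± 0.08 under TSA (edgeR, adjusted p = 6.01e-15). SPRY4, an inhibitor of the same pathway, differed by -2.39 with TSA and -3.91 without.

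FOSL1, a subunit of the AP-1 factor, had 11.3, 7.13 and 7.17 CPM in DTP_TSA against 198.4, 145.7 and 134.8 CPM in parental_TSA, and 78.5, 80.4 and 80.7 CPM in DTP against 371.5, 349.6 and 382.0 CPM in parental_DMSO. It was lowest in TSA-treated persisters and its difference of -4.26 ± 0.17 was larger than the -2.20 without TSA (edgeR, adjusted p = 1.59e-12 for the first). MYC had 48.0, 42.9 and 42.4 CPM in DTP_TSA against 176.2, 153.4 and 146.7 CPM in parental_TSA, a difference of -1.84 against -1.37 without TSA. The receptor gene EPHA2 differed by -2.65 with TSA and -1.38 without. AREG, a ligand of EGFR, was not called under TSA (0.15) and was lower by 2.30 without, a change of 2.46. The 2 higher genes were SPRY2 (0.37) and SPRED1 (0.26), both inhibitors of the pathway.

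EGFR itself could not be placed. It had 401.5, 376.4 and 391.1 CPM in DTP_TSA against 96.6, 281.2 and 477.8 CPM in parental_TSA, and the groups overlapped. The difference was 0.45 ± 0.32 (edgeR, adjusted p = 0.237), 0.01 without both a libraries, and 1.04 without parental_TSA c, where it was called (adjusted p = 0.0028).

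Cell division genes were lower in persisters with TSA by more than without. In DTP_TSA 25 of 25 mitosis genes were lower, with a median of -1.87 and -1.82 without library a of both groups, against -1.15 without TSA, where all 25 were lower too. The change was called downward in 19 of them, or in 8 with spike-in scaling, and upward in none. PLK1, a kinase that drives entry into mitosis, had 25.5, 25.9 and 25.9 CPM in DTP_TSA against 149.1, 134.5 and 127.9 CPM in parental_TSA, and 65.4, 67.7 and 67.5 CPM in DTP against 158.2, 151.9 and 167.1 CPM in parental_DMSO. Levels were thus lower in TSA-treated than in untreated persisters and close in both parental groups, with a difference of -2.41 with TSA and -1.25 without. CCNB1, the mitotic cyclin, had 76.7, 90.7 and 90.0 CPM in DTP_TSA against 403.7, 347.6 and 311.9 CPM in parental_TSA, and differed by -2.05 ± 0.08 (edgeR, adjusted p = 1.83e-12).

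MKI67, the proliferation marker Ki-67, had 61.5, 77.6 and 81.2 CPM in DTP_TSA against 151.3, 250 and 333.5 CPM in parental_TSA. The groups did not overlap, although the parental libraries spread over more than a factor of 2, and the difference was -1.74 ± 0.19 (edgeR, adjusted p = 4.24e-07). Without TSA it was -1.10, and the change of -0.63 was not called (edgeR, adjusted p = 0.06), but without both a libraries it was -0.78 and called (edgeR, adjusted p = 1.98e-05). Of 25 DNA replication genes 22 were lower and 1 higher in DTP_TSA, with a median of -1.04, against -0.90 and 22 lower without TSA. RRM2, a subunit of the enzyme that makes deoxynucleotides, differed by -1.77 and the helicase subunit MCM7 by -1.46. The higher gene was CCNE2 (0.55), a cyclin of the G1/S transition, which was lower without TSA (-0.25).

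A list of CDK inhibitors and genes of quiescence, which also holds the cyclin genes CCND2, CCND3 and CCNG2, had 14 members tested. Their change under TSA was called downward in 7 and upward in 1, where 23.0% and 15.3% of all genes were. Without TSA 10 of 14 were higher and 1 lower in DTP, with a median of 0.59. With TSA 5 were higher and 7 lower, with a median of -0.05, beside 31.7% and 31.1% of all genes. The median was 0.22 with spike-in scaling, where 3 were lower, and 0.01 without library a of both groups, where 4 were. CDKN2B, an inhibitor of CDK4 and CDK6, had 45.1, 52.9 and 53.6 CPM in DTP_TSA against 24.5, 24.3 and 23.8 CPM in parental_TSA, and 127.4, 130.7 and 131.4 CPM in DTP against 8.43, 7.54 and 8.17 CPM in parental_DMSO. The pair under TSA was closer from both sides, at 1.06 ± 0.06 (edgeR, adjusted p = 3.03e-10) against 4.01. CDKN1B, the inhibitor p27, was lower by 0.75 with TSA and higher by 0.42 without. CDKN1A, the inhibitor p21, went the other way: 106.6, 98.3 and 92.1 CPM in DTP_TSA against 87.0, 69.7 and 63.6 CPM in parental_TSA, and 43.6, 44.7 and 45.1 CPM in DTP against 73.9, 69.2 and 74.3 CPM in parental_DMSO. Its highest libraries were thus TSA-treated persisters and its lowest untreated persisters, with a difference of 0.43 with TSA and -0.70 without.

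Genes of cytosolic ribosomal proteins were lower in all 29 of 29 cases in DTP_TSA, with a median of -1.17, or -0.92 without library a of both groups, against -0.60 without TSA. In RPS2, for example, the libraries had 1045, 1061 and 1075 CPM in DTP_TSA against 3730, 2264 and 1982 CPM in parental_TSA. Parental_TSA a stood apart at the top there, and the difference of -1.33 was -0.9992 without both a libraries. The change was called downward in 28 of the 29, and in 5 with spike-in scaling.

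**Figure D3:**
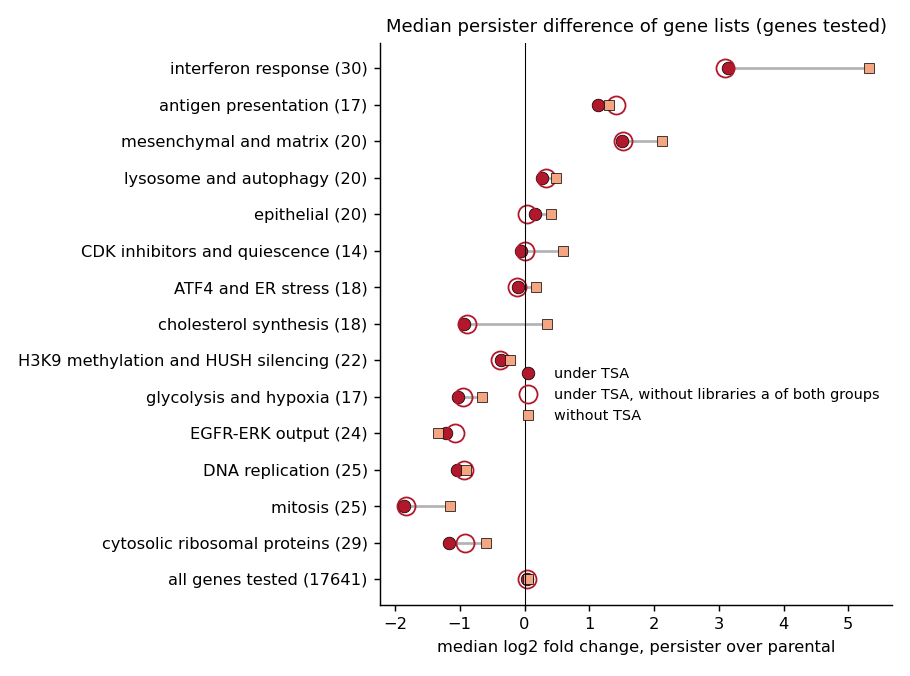
Median log2 fold change, persister over parental, of 14 gene lists and of all genes tested, with the number of genes tested in brackets; filled circles are with TSA, open circles with TSA without library a of both groups and squares without TSA. Interferon response has the highest medians (3.14 with TSA, 5.32 without), mitosis the lowest with TSA (-1.87), and cholesterol synthesis lies at -0.94 with TSA and 0.34 without.

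Cholesterol synthesis turned round. Without TSA 12 of 18 genes were higher and 3 lower in DTP, with a median of 0.34; with TSA 17 were lower and none higher in DTP_TSA, with a median of -0.94, and the change was called downward in all 18. With spike-in scaling 13 were lower under TSA, with a median of -0.66, and the change was called in 12. INSIG1, which holds the sterol sensor SCAP in the endoplasmic reticulum and is induced when the pathway is active, had 59.9, 67.4 and 66.5 CPM in DTP_TSA against 219.9, 219.6 and 209.4 CPM in parental_TSA, and 60.1, 60.7 and 60.4 CPM in DTP against 21.9, 23.2 and 22.7 CPM in parental_DMSO. Persister levels were close with and without TSA, and parental levels were far higher with TSA than without. The difference was -1.74 ± 0.05 with TSA (edgeR, adjusted p = 3.98e-14) and 1.42 without.

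HMGCS1, an early enzyme of the pathway, had 403.4, 391.4 and 388.7 CPM in DTP_TSA against 449.4, 580.0 and 597.1 CPM in parental_TSA, and differed by -0.46 with TSA and 1.16 without. The squalene synthase FDFT1 differed by -1.22 with TSA and 0.34 without. SC5D, a late enzyme, was the member not called under TSA (0.08).

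Glycolysis and hypoxia genes were lower in 16 of 17 cases and higher in 1 in DTP_TSA, with a median of -1.03, against 13 lower and 3 higher without TSA, with a median of -0.66. LDHA, which makes lactate from pyruvate, had 1214, 1450 and 1421 CPM in DTP_TSA against 4366, 3968 and 3606 CPM in parental_TSA. It differed by -1.55 ± 0.07 with TSA (edgeR, adjusted p = 2.15e-11) and -0.77 without. NDRG1, a gene induced by low oxygen, differed by -2.13. The single higher gene was EGLN3 (1.78), an oxygen sensor that marks the factor HIF for decay, which differed by 3.31 without TSA.

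The stress list of ATF4 and the endoplasmic reticulum had 7 genes higher and 9 lower of 18 in DTP_TSA, beside 31.7% and 31.1% of all genes. Its median was -0.10, or 0.13 with spike-in scaling. Without TSA 10 were higher and 3 lower. DDIT4, an inhibitor of the growth kinase mTORC1, had 34.0, 26.4 and 27.5 CPM in DTP_TSA against 227.1, 198.0 and 184.8 CPM in parental_TSA, and 40.3, 40.3 and 42.8 CPM in DTP against 38.2, 36.1 and 35.1 CPM in parental_DMSO. Parental_TSA was the group that stood apart, and the difference of -2.80 ± 0.09 with TSA (edgeR, adjusted p = 2.22e-13) compares with 0.17 without, which was not called. The stress factor ATF3 was higher by 2.24 with TSA and 3.05 without.

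Matrix and mesenchymal genes were mostly higher with and without TSA. Of 20 tested, 12 were higher and 2 lower in DTP_TSA, beside 31.7% and 31.1% of all genes, with a median of 1.504. Without TSA 13 were higher and 3 lower, beside 31.0% and 27.8% of all genes, with a median of 2.12. In both comparisons 11 were higher. The change was called downward in 5 and upward in 2, near the 23.0% and 15.3% of all genes. FN1, the matrix protein fibronectin, had 25520, 28020 and 27700 CPM in DTP_TSA against 158.0, 267.4 and 329.3 CPM in parental_TSA, and 33080, 33960 and 32350 CPM in DTP against 494.6, 533.1 and 523.7 CPM in parental_DMSO. TSA-treated libraries were lower than untreated ones of their kind, and the difference was 6.75 with TSA and 6.00 without. TAGLN, an actin-binding protein of contractile cells, had 53.4, 55.5 and 58.5 CPM in DTP_TSA against 1.16, 0.855 and 0.888 CPM in parental_TSA. It differed by 5.87 ± 0.11 (edgeR, adjusted p = 9.35e-17). THBS1, the matrix protein thrombospondin, had 596.2, 587.5 and 588.4 CPM in DTP_TSA against 64.3, 85.2 and 92.3 CPM in parental_TSA, and differed by 2.87 with TSA and 2.58 without. The lower genes were AXL (-0.78), a receptor kinase, and TGFBI (-0.57), a matrix protein.

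Markers of other cell types stood beside these genes. The summed level of the fibroblast markers was 30.3 to 36.4 CPM in DTP_TSA and 13.2 to 15.2 CPM in parental_TSA, and 25.9 to 29.7 CPM in DTP and 4.74 to 4.79 CPM in parental_DMSO. Of 10 fibroblast markers 5 could be tested, 4 were higher in DTP_TSA, and COL1A1 made up most of the sum at 30.5 CPM in DTP_TSA and 14.2 CPM in parental_TSA. POSTN had 1.95 CPM in DTP_TSA and 0.0127 CPM in parental_TSA, LUM and DCN had 0.223 and 0.147 CPM in DTP_TSA and no read in parental_TSA, and COL1A2, COL3A1, PDGFRA, FAP and THY1 were too low to be tested. The endothelial sum was 35.6 to 37.9 CPM in DTP_TSA and 21.4 to 24.2 CPM in parental_TSA, with KDR higher by 4.28 and PECAM1 lower by 2.31. The immune sum was 25.2 to 32.9 CPM in DTP_TSA and 23.7 to 26.1 CPM in parental_TSA, most of it CD68, and of 10 markers 5 could be tested and 2 were higher, CD14 and CSF1R. The part of other cells in the differences above was not tested.

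Epithelial genes had 6 members higher and 7 lower of 20 in DTP_TSA, near the 31.7% and 31.1% of all genes, with a median of 0.16. Without TSA 13 were higher and 5 lower. The change was called downward in 8 and upward in none, beside 23.0% and 15.3% of all genes. CLDN1, a tight junction protein, had 336.3, 357.5 and 347.4 CPM in DTP_TSA against 59.2, 60.8 and 57.4 CPM in parental_TSA, and its difference of 2.55 with TSA was close to the 2.47 without. ESRP1, a splicing factor of epithelial cells, had 102.0, 102.0 and 101.1 CPM in DTP_TSA against 185.7, 208.8 and 204.3 CPM in parental_TSA, a difference of -0.97 where it was 0.20 without TSA. Lysosome and autophagy genes had 12 higher and 5 lower of 20, beside 31.7% and 31.1% of all genes, with a median of 0.27. Without TSA 15 were higher and 3 lower, beside 31.0% and 27.8% of all genes, with a median of 0.48. GABARAPL1, which coats autophagosomes, differed by 1.05 with TSA and 3.09 without.

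Beyond the groups above, the largest differences that passed the naming rule were of mixed kind. IGFBP5, a binding protein of insulin-like growth factors, had 308.0, 353.6 and 345.6 CPM in DTP_TSA against 0.244, 0.600 and 0.508 CPM in parental_TSA, a difference of 9.45 ± 0.16 (edgeR, adjusted p = 4.76e-17), and 10.23 without TSA, a change that was called (-0.78). MYL9, a light chain of contractile myosin, had 73.5, 92.9 and 92.6 CPM in DTP_TSA against 0.275, 0.182 and 0.144 CPM in parental_TSA, and differed by 8.84 with TSA and 8.71 without. C1S, a protease of the complement system, had 135.4, 131.0 and 127.6 CPM in DTP_TSA against 1.39, 1.28 and 1.43 CPM in parental_TSA, and differed by 6.58 with TSA and 6.74 without. In these 3 genes the persister and parental libraries were far apart with and without TSA. The other higher genes of the rule were TENM2 (7.47), a neuronal adhesion protein, UBD (7.05), a ubiquitin-like protein, the chemokine CCL5 (6.84) and the keratin KRT17 (6.49).

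SERPINB2, an inhibitor of plasminogen activators, had 45.1, 55.6 and 56.3 CPM in DTP_TSA against 0.183, 0.209 and 0.250 CPM in parental_TSA, and 86.8, 84.5 and 85.2 CPM in DTP against 8.66, 8.74 and 8.30 CPM in parental_DMSO. TSA-treated parental cells were lowest by far, and the difference was 7.89 ± 0.13 with TSA (edgeR, adjusted p = 4.3e-17) and 3.32 without. The change was 4.57.

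Among lower genes NTSR1, the neurotensin receptor, had 1.08, 1.27 and 1.56 CPM in DTP_TSA against 53.5, 40.7 and 41.8 CPM in parental_TSA. It differed by -5.08 ± 0.17 with TSA (edgeR, adjusted p = 2.14e-13) and -6.59 without. CEACAM6, a surface protein of epithelial tumours, had 129.0, 141.1 and 134.4 CPM in DTP_TSA against 1102, 1330 and 1316 CPM in parental_TSA, and its relative CEACAM5 differed by -4.20. TERT, the catalytic subunit of telomerase, had 2.54, 1.79 and 1.85 CPM in DTP_TSA against 21.1, 17.8 and 18.9 CPM in parental_TSA, and differed by -3.26 with TSA and -2.94 without. The calcium-binding proteins S100A4 and S100A9 differed by -3.55 and -3.41, the receptor IL1RL1 by -4.04 and the collagen COL13A1 by -3.87. The rule also named SLC22A20P (-4.92), CCR5AS (-3.88), LHX1 (-3.42), FAM25A (-3.31) and PDE2A (-3.15), an enzyme that degrades cyclic nucleotides. All 30 genes named for their size kept their call and direction in every alternative run. The rule had already asked for large, non-overlapping differences called without library a of both groups, so this was partly fixed by the choice.

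Some genes changed sides between the pairs. Of the genes called in both comparisons, 386 were higher in DTP without TSA and lower in DTP_TSA, and 353 were lower without TSA and higher with it. BHLHE40, a repressor that is part of the circadian and hypoxia circuits, had 14.5, 14.4 and 14.6 CPM in DTP_TSA against 44.3, 47.9 and 48.5 CPM in parental_TSA, and 57.4, 56.0 and 55.0 CPM in DTP against 15.1, 13.9 and 14.8 CPM in parental_DMSO. The levels were exchanged, at -1.70 with TSA and 1.95 without (edgeR, change -3.64). CCNG2, a cyclin of resting cells, had 15.1, 19.2 and 19.8 CPM in DTP_TSA against 35.3, 35.9 and 34.7 CPM in parental_TSA, and differed by -0.96 with TSA and 1.61 without.

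ODC1, the first enzyme of polyamine synthesis, had 394.6, 413.9 and 402.6 CPM in DTP_TSA against 301.2, 286.4 and 265.8 CPM in parental_TSA, and 203.3, 197.0 and 201.0 CPM in DTP against 743.3, 741.6 and 702.0 CPM in parental_DMSO. TSA-treated persisters were higher than their TSA-treated parents, and untreated persisters lower than theirs, with 0.51 with TSA and -1.86 without. RHPN2 differed by 0.44 with TSA and -1.003 without. CXCL8, the chemokine interleukin-8, had 71.2, 65.0 and 62.3 CPM in DTP_TSA against 18.4, 17.9 and 17.3 CPM in parental_TSA, and 18.5, 16.5 and 18.2 CPM in DTP against 16.3, 16.7 and 15.3 CPM in parental_DMSO. Only the TSA-treated persisters of these 4 groups stood apart, at a difference of 1.89 with TSA and 0.14 without, which was not called (edgeR, adjusted p = 0.095).

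TUBA1A, an alpha-tubulin, had 148.7, 149.0 and 140.6 CPM in DTP_TSA against 30.8, 27.7 and 25.9 CPM in parental_TSA, and 150.7, 148.8 and 147.3 CPM in DTP against 2.02, 1.97 and 1.87 CPM in parental_DMSO. Persister levels were close with and without TSA, parental levels were not, and the difference was 2.38 with TSA and 6.25 without. ICAM1, an adhesion molecule, had 532.3, 601.2 and 593.0 CPM in DTP_TSA against 297.5, 324.7 and 328.4 CPM in parental_TSA, and 529.0, 536.9 and 519.3 CPM in DTP against 51.6, 52.6 and 53.7 CPM in parental_DMSO, and differed by 0.86 with TSA and 3.33 without.

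**Figure D4:**
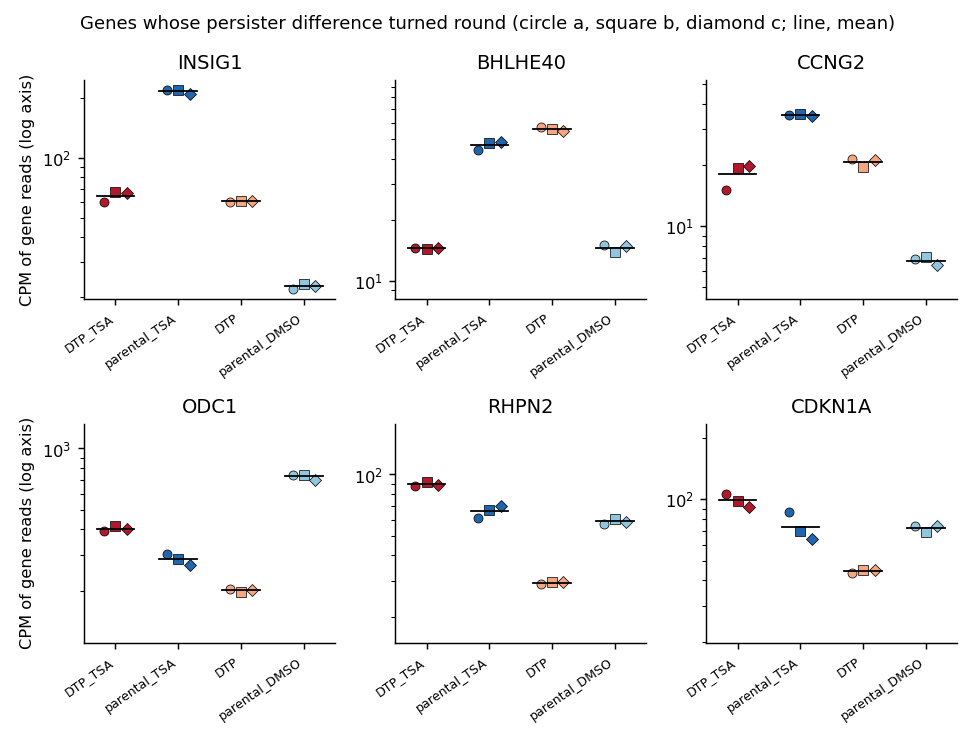
CPM of gene reads on a log axis for 6 genes whose persister difference had opposite signs with and without TSA, in the 12 libraries (circle a, square b, diamond c, line at the mean). INSIG1, BHLHE40 and CCNG2 are lower in DTP_TSA than in parental_TSA and higher in DTP than in parental_DMSO; ODC1, RHPN2 and CDKN1A show the reverse.

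A list of genes of H3K9 methylation and HUSH silencing had more members lower than higher in DTP_TSA, 13 against 2 of 22. Over all genes 31.1% were lower and 31.7% higher. The list also holds the DNA methylation genes DNMT1, DNMT3A, DNMT3B and UHRF1, and the chromatin genes HELLS, ATRX and DAXX. Its median was -0.36, though with spike-in scaling 3 were lower and 1 higher and the median was -0.09. Without TSA 12 were lower and 3 higher. SETDB1, the methyltransferase that works with the HUSH complex, had 8.65, 12.6 and 12.98 CPM in DTP_TSA against 16.1, 17.4 and 17.7 CPM in parental_TSA, and averaged 33.1 CPM in DTP and 33.5 CPM in parental_DMSO. TSA-treated libraries were lower than all untreated ones. The difference of -0.57 ± 0.10 (edgeR, adjusted p = 0.000142) was -0.20 with spike-in scaling, where it was not called (adjusted p = 0.416). UHRF1, which guides maintenance of DNA methylation, had 11.2, 15.1 and 15.8 CPM in DTP_TSA against 51.7, 47.7 and 49.4 CPM in parental_TSA, a difference of -1.81. It is also on the list of DNA replication genes, most of which were lower. Of 11 genes of histone deacetylases, the targets of TSA, 2 were higher and 5 lower, beside 31.7% and 31.1% of all genes, with HDAC5 at 1.63. With spike-in scaling 1 was higher and none lower.

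Genes that restrict LINE-1 had 5 members higher and 6 lower of 16 in DTP_TSA, near the 31.7% and 31.1% of all genes. Their median was -0.23, or 0.10 with spike-in scaling and -0.01 without library a of both groups. Without TSA 10 were higher and 3 lower, beside 31.0% and 27.8% of all genes, with a median of 0.81. SAMHD1, which depletes deoxynucleotides, had 67.0, 88.7 and 92.1 CPM in DTP_TSA against 17.6, 27.9 and 30.1 CPM in parental_TSA, and differed by 1.71 with TSA and 2.08 without. APOBEC3F, a cytidine deaminase, had 16.7, 18.2 and 17.0 CPM in DTP_TSA against 30.6, 29.8 and 31.3 CPM in parental_TSA, and 23.6, 23.5 and 24.9 CPM in DTP against 11.8, 12.8 and 12.6 CPM in parental_DMSO. It changed sides, at -0.82 with TSA and 0.95 without.

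Reads from repeats were more often higher in DTP_TSA. Of 1101 repeat subfamilies tested on the scale of gene reads, 340 were higher (30.9%) and 73 lower (6.63%), against 85 higher (7.72%) and 67 lower (6.09%) in DTP without TSA. When library a of both TSA groups was left out, 375 were higher and 93 lower with TSA, and 216 higher and 193 lower without TSA. The change was called upward in 185 (16.8%) and downward in 54 (4.90%). The 413 called with TSA were 43 when only the 2 TSA groups were fitted and 12 when repeat reads served as library sizes. Of 57 repeat families, with gene reads as library sizes, 29 were higher (50.9%) and 4 lower (7.02%) with TSA, and 6 higher (10.5%) and 4 lower (7.02%) without, while the change was called upward in 16 (28.1%) and downward in 1 (1.75%). Leaving out library a of both TSA groups gave 22 families higher with TSA and 14 without; with spike-in scaling 8 were higher with TSA and with repeat reads as library sizes 2. A read from a repeat copy that sits inside another transcript cannot be told apart here from a transcript of the repeat itself. Repeat reads as library sizes include the rRNA repeat family. It had 130700 CPM in DTP_TSA a, where all tested repeat subfamilies summed to 145200 CPM, against 4906 and 8162 in DTP_TSA b and c. In parental_DMSO it had 9564, 33970 and 5255 CPM. That scaling thus follows rRNA reads too, and a call lost under it does not show how a repeat stood against the other repeats.

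The L1 family had 4641, 4511 and 4589 CPM in DTP_TSA against 3014, 3208 and 3375 CPM in parental_TSA, and 4308, 4230 and 4243 CPM in DTP against 4054, 4316 and 4062 CPM in parental_DMSO. Parental_TSA was the low group, while the other 3 were close. The difference was 0.52 ± 0.04 with TSA (edgeR, adjusted p = 3.12e-07), 0.46 without both a libraries, and 0.04 without TSA (edgeR, adjusted p = 0.611), and the change was 0.48 (edgeR, adjusted p = 5.52e-05). With only the TSA groups fitted, the difference with TSA was 0.53 (edgeR, adjusted p = 0.0176). When repeat reads, rRNA included, served as library sizes, neither the difference with TSA nor the change was called. They were 0.13 (edgeR, adjusted p = 0.983) and -0.0056 (edgeR, adjusted p = 0.994). With spike-in scaling the difference was called and the change of 0.59 was not (edgeR, adjusted p = 0.407).

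All 8 of the youngest L1 subfamilies were higher in DTP_TSA, with a median of 0.95, against 0.31 over all subfamilies, and 2 of 8 were higher without TSA, with a median of 0.33 against 0.02. With both a libraries left out, 7 of 8 were called higher without TSA, at the same median, and with repeat reads as library sizes none of the 8 was called by edgeR in either comparison. L1HS, the subfamily that still moves in the human genome, had 58.4, 58.4 and 57.4 CPM in DTP_TSA against 19.1, 31.9 and 37.8 CPM in parental_TSA, and 77.8, 78.1 and 73.8 CPM in DTP against 54.5, 58.0 and 54.9 CPM in parental_DMSO. TSA-treated persisters were near untreated parental cells, and TSA-treated parental cells were lowest and spread most. The difference was 0.97 ± 0.15 (edgeR, adjusted p = 0.000142), or 0.72 without both a libraries, and 0.46 without TSA (edgeR, adjusted p = 0.0591), which was called without both a libraries. L1PA2, the next youngest, differed by 1.15 with TSA and 0.88 without, and L1PA4 by 0.94 and 0.35, where its change of 0.59 was called with gene reads as library sizes and with neither other scaling. Of 11 older primate L1 subfamilies 8 were higher with TSA, beside 30.9% of all subfamilies, with a median of 0.77. None of 8 AluY subfamilies was called with TSA, by edgeR, and their median was -0.04.

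LTR12 and HERV9 stood out. These are the long terminal repeats and the internal parts of an endogenous retrovirus, and LTR12 copies are known from other human cell lines as promoters that deacetylase inhibitors switch on. In DTP_TSA 9 of 10 subfamilies were higher and none lower, with a median of 2.48, or 2.28 without library a of both groups, against 2 higher and a median of 0.13 without TSA, and the change was called upward in 8, or in 7 with spike-in scaling and in none with repeat reads as library sizes (edgeR). Their summed level was 394.0, 404.9 and 407.9 CPM in DTP_TSA against 107.5, 113.7 and 121.3 CPM in parental_TSA, and 58.9, 60.3 and 58.2 CPM in DTP against 55.8, 57.1 and 58.7 CPM in parental_DMSO. Both TSA-treated groups were above both untreated groups, and TSA-treated persisters far above all others.

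LTR12 had 43.4, 68.0 and 67.9 CPM in DTP_TSA against 9.66, 8.73 and 9.20 CPM in parental_TSA, and 3.70, 3.45 and 3.37 CPM in DTP against 3.87, 3.76 and 3.54 CPM in parental_DMSO. DTP_TSA a was the lowest of its group and still above every other library. The difference was 2.70 ± 0.14 with TSA (edgeR, adjusted p = 3.77e-10) and -0.09 without. LTR12D had 65.0, 64.2 and 62.1 CPM in DTP_TSA against 6.37, 9.61 and 10.4 CPM in parental_TSA, and HERV9-int had 35.5, 38.7 and 37.7 CPM in DTP_TSA against 2.32, 3.92 and 4.83 CPM in parental_TSA. They differed by 2.86 and 3.33, and no libraries overlapped. LTR12C had 173.0, 161.6 and 166.3 CPM in DTP_TSA against 79.5, 76.9 and 78.4 CPM in parental_TSA, and differed by 1.09. LTR12E was the subfamily that was not called (0.03). LTR12, LTR12D, HERV9-int and HERV9NC-int were also called higher when repeat reads served as library sizes, and LTR12C was not.

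**Figure D5:**
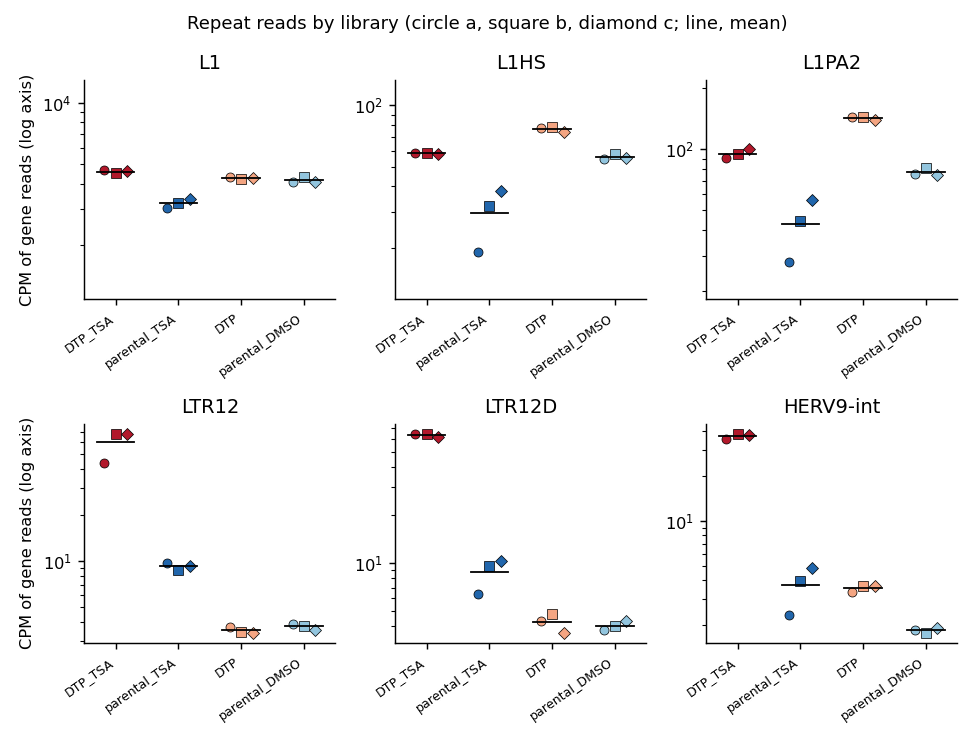
Reads of the L1 family and of 5 repeat subfamilies, in CPM of gene reads on a log axis, in the 12 libraries (circle a, square b, diamond c, line at the mean). For L1, L1HS and L1PA2 the lowest libraries are those of parental_TSA; for LTR12, LTR12D and HERV9-int the DTP_TSA libraries lie far above the rest.

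The repeats named for the largest negative differences were LTR7Y, LTR7C, MER65-int, LTR54B and LTR06. LTR7Y, a long terminal repeat of HERVH, had 29.0, 37.2 and 35.9 CPM in DTP_TSA against 241.1, 137.1 and 112.7 CPM in parental_TSA, a difference of -2.26, or -1.78 without both a libraries. MER65-int had 2.12, 3.29 and 4.89 CPM in DTP_TSA against 186.4, 67.4 and 28.1 CPM in parental_TSA. Parental_TSA a was the highest library for both, and the MER65-int difference of -4.75 was -3.55 without both a libraries. LTR54B and LTR06 differed by -3.64 and -2.41, and by -1.43 and -1.18 without both a libraries. LTR7C differed by -2.37. HERVH and LTR7 as a list had 4 of 5 members lower and none higher with TSA, with a median of -0.89. Over all subfamilies 6.63% were lower and 30.9% higher.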

How the data were processed

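RNA from PC9 cells was sequenced from poly(A)-selected libraries to which ERCC spike-in RNA had been added by cell number, per the labels' protocols. The authors deposited expected counts, that is estimated counts per gene, repeat subfamily, repeat family and spike-in, which were made with Salmon per the submitters' processing notes. No source used here gives its version, the genome build or the annotation. Each deposited file has 3 columns that matched no sample and were not used. Reads without a gene symbol made up 0.247% of gene reads. Their genes were kept in the tests and counts under their identifiers, and were skipped when genes were named.

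Counts were rounded to whole numbers and tested with edgeR 4.0.16 in R 4.3.3 (filterByExpr, TMM scaling, quasi-likelihood F-test) over all 18 libraries, with 1 term per group and 12 residual degrees of freedom. Repeats were scaled by the gene library sizes. Adjusted p-values follow Benjamini and Hochberg, separately in 3 contrasts and with a threshold of 0.05, and SE is the log2 fold change divided by the square root of F. The fit was also run on simulated counts with known changes, and the outcome of that run is not given here. Gene reads per library were 32139343 to 128293531, and counting error alone is therefore small for all but genes near 0, for which no fold is given against 3 or fewer reads over a group.

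Members, 29 gene and marker lists and 9 repeat lists were chosen with earlier results of these data known. Genes were named by rule: the 15 largest differences per direction with at least 10 CPM, an adjusted p under 0.05, no overlap and the same call without library a of both groups; 6 per direction for the change under TSA and up to 4 per list by the smallest p; and 5 repeats per direction with at least 1 CPM. EGFR, SETDB1, CDKN1A, MKI67, ALDH1A1 and the youngest L1 subfamilies were always named. Further members of the lists were chosen as examples after their values were seen. Alternatives were DESeq2 1.42.0, DESeq2 size factors, other expression filters, spike-in or repeat reads as library sizes, a fit of the compared groups alone, a block for the replicate letter, and libraries left out. A few genes meeting these criteria are left unreported.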

Additional observations from a re-analysis of the deposited data

Results flagged for a closer look

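Each of these results is a persister difference that was not the same with and without TSA by edgeR's test of the change itself (the log2 difference of DTP_TSA and parental_TSA minus that of DTP and parental_DMSO). The change was called upward in 2697 genes and downward in 4053, and in 185 and 54 repeat subfamilies. The L1 family changed by 0.48 on the scale of gene reads. The change was 0.59 and not called with spike-in scaling (edgeR, adjusted p = 0.407), and -0.0056 with repeat reads, rRNA included, as library sizes.

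Among genes chosen by the smallest p, the change was upward in SERPINB2 (4.57), ODC1 (2.37), CXCL8 (1.75), POLR3G (1.73), HMGA2 (1.63) and RHPN2 (1.44). HMGA2, an architectural chromatin protein, had 34.99, 35.4 and 35.4 CPM in DTP_TSA against 113.3, 108.3 and 102.4 CPM in parental_TSA, and 45.8, 44.1 and 43.6 CPM in DTP against 419.6, 423.5 and 417.4 CPM in parental_DMSO. POLR3G, a subunit of RNA polymerase III, averaged 17.8 CPM in DTP_TSA and 25.1 CPM in parental_TSA, against 14.8 CPM in DTP and 68.8 CPM in parental_DMSO. In both genes the persister groups were close and the parental groups were not.

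The change was downward in TUBA1A (-3.87), BHLHE40 (-3.64), INSIG1 (-3.16), CDKN2B (-2.95), ICAM1 (-2.47) and GABARAPL1 (-2.04).

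Among the named repeats the change was upward in the simple repeat (TA)n (3.41), HERV9NC-int (3.01), LTR12 (2.79), LTR12D (2.78), HERV9-int (2.38) and L1PA4 (0.59). It was downward in LTR54B (-3.19), MER65-int (-2.74), LTR06 (-2.12), LTR7Y (-1.34) and LTR7C (-1.22). Without library a of both TSA groups these changes were called too, at -0.98 for LTR54B, -1.54 for MER65-int, -0.89 for LTR06, -0.86 for LTR7Y and -0.91 for LTR7C. With repeat reads, rRNA included, as library sizes no change of an LTR12 or HERV9 subfamily was called by edgeR.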

How the results depend on the processing

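Across the alternatives, 99 of the values that answer a comparison kept their direction and size or call, 3 counts moved by over 1.5 times, 1 call was lost and 1 value turned. With spike-in reads as library sizes, without DTP_TSA a, the genes whose persister difference changed under TSA numbered 2734 in place of 6750. The 413 called repeat subfamilies were 43 when the TSA groups were fitted alone and 12 with repeat reads as library sizes. The latter run also lost the L1 family call at 0.13 (edgeR, adjusted p = 0.983) and turned its change under TSA to -0.0056. Its library sizes include rRNA reads, which differed widely between libraries. The spike-in ratio of 2.41 was -0.078 without DTP_TSA a. With single libraries left out, genes called under TSA ranged over 10429 to 12042, without TSA 9468 to 9562, changed under TSA 5748 to 7850, kept in direction 6543 to 8013, repeat subfamilies 367 to 457, the L1 difference 0.474 to 0.552 and the spike-in ratio -0.078 to 3.67. Without library a of both TSA groups 12742 genes were called under TSA, and with DESeq2 11446. Fits of the compared groups alone called 7393 genes under TSA and 13010 without. Of 147 named genes, 144 were called and 134 kept call and direction in every alternative. Apart from those always named, these genes were picked by size or smallest p, which favours a stable call. Calls lost with spike-in scaling were those of POLR3G, SETDB1, CBX5, DAXX, HDAC1, HDAC2, HDAC7, MT-CO2, MT-ND4 and KRT19.

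The letters a, b and c are not stated to pair libraries, and same-letter deviations in the TSA groups correlated at 0.05, 0.12 and 0.04, where DTP_TSA c correlated best with parental_TSA b (0.09). With the letter as a replicate block, 10874 genes were called under TSA, 10300 without, 6641 changed, 6965 kept their direction, 396 repeat subfamilies were called and the L1 difference was 0.518.

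Levels near 0 limit the parental side of several interferon genes, where a handful of reads sets the fold. Library DTP_TSA a has the least depth on genes.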

Other observations

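Inflammatory genes of NF-kB had 8 of 20 members higher and 5 lower in DTP_TSA, with a median of 0.50, and 11 higher and 5 lower without TSA; without library a of both groups 12 were higher with TSA. BIRC3, an inhibitor of apoptosis that NF-kB induces, had 353.4, 353.8 and 357.5 CPM in DTP_TSA against 64.6, 91.9 and 99.5 CPM in parental_TSA, and differed by 2.06 with TSA and 1.83 without. NFKBIA, which holds NF-kB in the cytosol, changed sides, at -0.77 with TSA and 1.01 without. IGFBP3, which binds insulin-like growth factors, had 805.4, 871.5 and 852.8 CPM in DTP_TSA against 72.4, 69.4 and 67.7 CPM in parental_TSA, a difference of 3.59, in a list where 7 of 13 members were higher and 6 lower. FOXO and PI3K genes had 7 of 15 higher and 4 lower, with a median of 0.45, and p53 targets 9 of 20 higher and 8 lower, with a median of 0.16. Beside the counts of these 4 lists, 31.7% of all genes were higher and 31.1% lower with TSA, and 31.0% and 27.8% without.

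Aldehyde dehydrogenases, some of which mark persisters in other work, had 8 of 19 higher and 5 lower in DTP_TSA, beside 31.7% and 31.1% of all genes, with a median of 0.08, or 0.42 without library a of both groups and 0.64 with spike-in scaling. ALDH3A1 had 28.7, 34.2 and 36.0 CPM in DTP_TSA against 264.8, 212.7 and 209.7 CPM in parental_TSA and differed by -2.79, while ALDH1A3 averaged 746.5 CPM in DTP_TSA and 726.0 CPM in parental_TSA and was not called. ALDH1A1 was at or near 0 in all 4 groups. Genes known from other cells to respond to TSA had 9 of 15 higher and 3 lower, with a median of 0.71, and the chaperone HSPA2 had 135.4, 127.0 and 126.2 CPM in DTP_TSA against 20.8, 19.4 and 19.6 CPM in parental_TSA. SYT11, a synaptotagmin on the same list as HSPA2, had 38.1, 31.4 and 33.0 CPM in DTP_TSA against 0.855, 1.41 and 2.07 CPM in parental_TSA. Of 20 neuronal genes 10 could be tested, and 5 were higher and none lower, beside 31.7% and 31.1% of all genes.

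Mitochondrially encoded genes had 9 of 13 lower in DTP_TSA, beside 31.1% of all genes, with a median of -0.57. Without library a of both groups 5 were lower and 2 higher, with a median of -0.11. The snRNA repeat family had 218.9 CPM in DTP_TSA a and 1.35 and 1.53 CPM in DTP_TSA b and c, so its difference of 5.55 was 0.19 without both a libraries. Of the remaining repeat lists, HERVK and LTR5 had 4 of 7 subfamilies higher, satellites 5 of 8 higher, SVA 2 higher and 2 lower of 6, and LTR10 3 of 9 lower. Over all subfamilies 30.9% were higher and 6.63% lower.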
